A study of Mus musculus with 860 samples.

Results

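Cluster 3 is a Louvain cluster of single endothelial cells from the aorta-gonad-mesonephros (AGM) region of the mouse embryo. It held 13.03% of the 775 cells that the authors kept, of 860 sequenced, and its members were taken as the cells that the deposited annotation assigns to cluster 3. They came from Gfi1:tomato reporter embryos at E11.5 and E10.5 (strain label CD1/Gf1+, matings of Gfi1:tomato or CD1 females with Gfi1:tomato or CD1 males), with no treatment. The cells were index sorted, so that the fluorescence of each cell was recorded, as GFI1+ HE (CD31+cKIT-GFI1+, hemogenic endothelium), GFI1+ IAHC (CD31+cKIT+GFI1+, intra-aortic hematopoietic clusters) or GFI1- IAHC (CD31+cKIT+GFI1-), and each gave a full-length Smart-Seq2 library. By the batch name in the annotation, these were 43 cells of GL53, 51 of GL78, 4 of GL58 and 3 of GL69. Cells were sorted from pools of several embryos, the labels name no embryo for a cell, each deposited sample is 1 cell, and the clusters were built from the same genes that are described here, so that no test was made and no p-value is given.

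The dorsal aorta of the mid-gestation embryo is lined by endothelial cells that differ in arterial and venous character. Some of them, the hemogenic endothelium, lose endothelial junctions and enter clusters of round cells in the lumen, which contain the first hematopoietic stem cells (HSC). Arterial identity is known to rest on VEGF and Notch signaling, with DLL4 as a ligand and HEY1 as a target. The transcription factors RUNX1 and GFI1 are known for driving the change to a blood cell. Endothelial cells also respond to blood flow with the Krüppel-like factors KLF2 and KLF4, and they pack von Willebrand factor into storage granules.

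The working name of the cluster rests on 5 genes, of which Cldn5 and Ccnd1 stand first. Levels are given as CPM, the summed counts of the cells of a cluster within a batch scaled to a total of 1000000, cluster 3 first and always as GL53 and then GL78. Cldn5, a claudin of endothelial tight junctions (chromosome 16, 18776847 to 18778262, GRCm38), was at 1303 and 1619 CPM in cluster 3, against 1414 and 1431 CPM in cluster 0, 1245 and 1768 CPM in cluster 1, and 1551 and 2482 CPM in cluster 4. Its log2 ratio of cluster 3 over cluster 0 was 0.03 ± 0.21 (SD over 2 batches, 1 CPM added to each value), and clusters 3, 0 and 1 lay close in its levels. Cluster 4 was above them in both batches, with a ratio of cluster 3 over cluster 4 of -0.43 ± 0.26. Ccnd1, cyclin D1 of the G1 phase (chromosome 7, 144929931 to 144939925), was at 228.4 CPM (exact 95% Poisson interval 222.8 to 234.1) and 304.5 CPM (299.3 to 310) in cluster 3, against 88.6 CPM (85.9 to 91.3) and 190.4 CPM (187.2 to 193.7) in cluster 0. The ratio was 1.02 ± 0.48, and reads of Ccnd1 were found in 97.7% and 100% of cluster 3 cells, against 61.1% and 82.1% of cluster 0 cells. Cluster 5, at 230.6 and 344.2 CPM, and cluster 1, at 188.8 and 293.7 CPM, had Ccnd1 levels close to those of cluster 3. All intervals on CPM and on shares cover counting error only.

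Aplnr, the apelin receptor, was at 1538 and 1034 CPM in cluster 3, against 1540 and 1187 CPM in cluster 0, 1051 and 744 CPM in cluster 1, and 1338 and 990 CPM in cluster 5. Tuba1a, an alpha tubulin, was at 752 and 1417 CPM in cluster 3, against 556 and 1019 CPM in cluster 0, and was above it in each of the 7 groups of equal batch, stage and gate that could be compared. Cluster 1, at 1019 and 1607 CPM, was above cluster 3 in Tuba1a. Tmem88, an inhibitor of Wnt signaling at the membrane, was at 419 and 438 CPM in cluster 3, against 488 and 496 CPM in cluster 0 and 546 and 468 CPM in cluster 1. None of the 5 genes was highest in cluster 3, and only Ccnd1 averaged a 2-fold difference from cluster 0, which GL78 alone did not reach. The 5 genes separate clusters 3, 0, 1 and 5 from cluster 2, in which Aplnr was at 0.0567 and 0 CPM and Tmem88 at 11.9 and 16.4 CPM, and the label therefore does not single out cluster 3, which is called by its number here. In the small batches, Cldn5 was at 1378 CPM in the 4 cells of GL58 and 1075 CPM in the 3 cells of GL69, and Ccnd1 at 165.3 and 489.6 CPM.

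**Figure D1:**
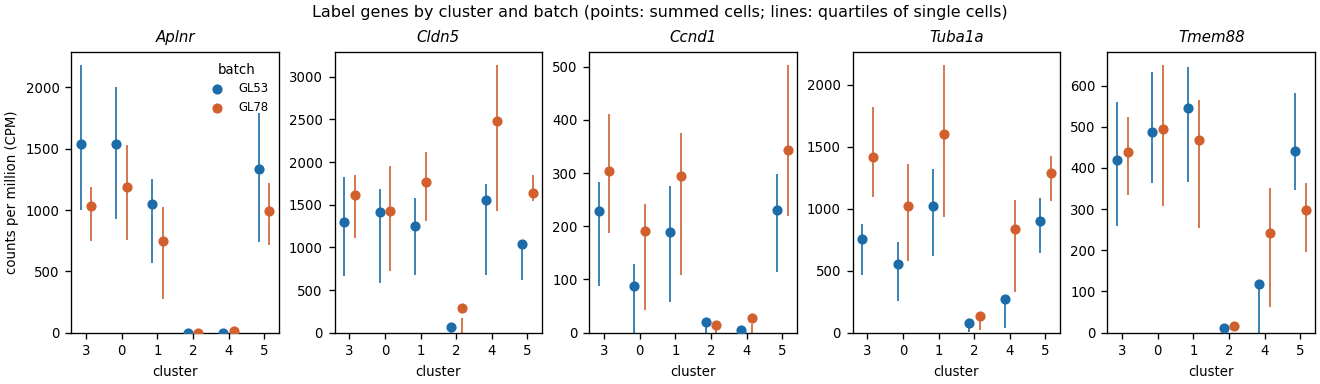
Level of the 5 label genes in cluster 3 and in clusters 0, 1, 2, 4 and 5 (CPM on a linear axis). Points are the summed cells of a batch and lines span the quartiles of single cells; cluster 3 lies beside clusters 0, 1 and 5 for Aplnr, Cldn5, Tuba1a and Tmem88, and above cluster 0 for Ccnd1 (228.4 and 304.5 against 88.6 and 190.4 CPM).

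The endothelial part of the label did hold. All 10 endothelial markers (such as Pecam1, Cdh5, Kdr and Emcn) were at 10 CPM or more in cluster 3, with a sum of 9740 and 7203 CPM, against 11943 and 9525 CPM in cluster 0. In cluster 2 all 10 also reached 10 CPM, with a lower sum of 1989 and 2139 CPM, so that the count alone does not tell the clusters apart. Cldn5, also a label gene, gave 1303 and 1619 CPM of the endothelial sum in cluster 3. Of 10 hematopoietic markers, Ptprc, Spn, Myb, Rac2, Ikzf1 and Cd52 had no read in cluster 3 in either batch, and the sum was 46.4 and 53.4 CPM, against 4238 and 2772 CPM in cluster 2. Venous markers summed to 2774 and 1908 CPM in cluster 3, against 3335 and 2526 CPM in cluster 0 and 422 and 483 CPM in cluster 4. The sum of the arterial markers was 847 and 734 CPM in cluster 3, against 725 and 672 CPM in cluster 0 and 8696 and 7411 CPM in cluster 4, and Bmx, a kinase of arterial endothelium, had no read in cluster 3. Cluster 3 thus had venous and pan-endothelial transcripts and few blood transcripts. Of 10 arterial markers 7 reached 10 CPM, and the arterial sum was near cluster 0 and far below cluster 4. Aplnr, also a label gene, gave 1538 and 1034 CPM of the venous sum. Macrophage markers summed to 50.9 and 17.3 CPM and erythroid markers to 1.75 and 2.82 CPM, against 25.7 and 26.3 CPM and 2.27 and 6.77 CPM in cluster 0. Gfi1 itself, which drives the reporter used in the sort, had 0 counts in cluster 3, where 3 counts would be 0.109 and 0.0710 CPM, and also in cluster 0, against 55.6 and 56.9 CPM in cluster 2. Cluster 3 nonetheless held 39 cells sorted as GFI1+ HE and 46 sorted as GFI1+ IAHC.

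Pooled over batches, depth was alike in the clusters that were compared most closely. Cluster 3 cells had 346423 to 1216955 counts with a median of 738797, against a median of 719353 in cluster 0, and 7269 against 7331 genes were detected in the median cell. At 50000 counts per cell these medians were 5525 and 5502 genes, and the median mitochondrial share of counts was 1.78% in cluster 3 and 1.74% in cluster 0. Within batches the median of genes detected differed in opposite directions, at 6374 against 6621.5 in GL53 and 8046 against 7480 in GL78. At 50000 counts per cell it was 5045 against 5222.5 and 5834 against 5585.5. The stages lay on separate plates (in GL78, cluster 3 cells of E11.5 came from 2 plates, cells of E10.5 from 1, and 0 plates held both), so that stage and plate cannot be told apart.

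The main question was what separates cluster 3 from cluster 0, which lay within 2-fold of it in each label gene but Ccnd1. The answer lay mostly in genes that cluster 3 had less of. A gene was called higher or lower where it reached 10 CPM in the higher cluster and differed 2-fold or more, one way, both in GL53 (43 cells of cluster 3, 72 of cluster 0) and in GL78 (51 and 84 cells). Of 9498 genes compared, 3.14% were lower and 0.147% (14 genes) were higher in cluster 3 than in cluster 0. The median log2 ratio of all these genes was -0.05 in GL53 and -0.12 in GL78. Because the clusters were drawn from the same values, the shares describe the boundary between the clusters and do not test it. They rest on both batches together, since GL53 alone gave 8.76% lower and 2.97% higher, and GL78 alone 8.49% lower and 0.776% higher. The GL78 ratios also carry a difference of stage and plate, which cannot be told apart. In that batch 64.7% of cluster 3 cells were from E10.5, against 23.8% of cluster 0 cells.

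Genes of vascular signaling and of the vessel surface stood among the lower genes. Cldn11, a claudin known from myelin and testis (chromosome 3, 31149920 to 31164324), was at 5.79 CPM (4.93 to 6.77) and 2.20 CPM (1.78 to 2.697) in cluster 3, against 193.9 CPM (189.98 to 197.95) and 53.5 CPM (51.8 to 55.2) in cluster 0. Reads of Cldn11 were found in 11.6% and 5.88% of cluster 3 cells, against 61.1% and 29.8% of cluster 0 cells, and the log2 ratio was -4.47 ± 0.53. Edn1, which encodes the vasoconstrictor endothelin 1 (chromosome 13, 42301476 to 42307990), was at 28.2 and 25.99 CPM in cluster 3, against 249.1 and 201.2 CPM in cluster 0 (-3.00 ± 0.14). It was read in 27.9% and 39.2% of cluster 3 cells, against 73.6% and 71.4% of cluster 0 cells, so that the ranges of single cells overlapped while the sums lay about as far apart in both batches. Vwf, von Willebrand factor, was at 70.2 and 67.4 CPM in cluster 3, against 653 and 300.03 CPM in cluster 0, with reads in 27.9% and 21.6% against 79.2% and 53.6% of cells.

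Epha4, an ephrin receptor, was at 7.87 and 0.805 CPM in cluster 3, against 67.4 and 33.6 CPM in cluster 0 (-3.60 ± 0.93), and Nrxn3, a neurexin, at 1.60 and 0.166 CPM against 30.8 and 24.4 CPM (-4.03 ± 0.59). Tll1, a metalloprotease that processes matrix and BMP regulators, was at 9.62 and 9.61 CPM in cluster 3, against 117.7 and 71.5 CPM in cluster 0 (-3.13 ± 0.50). Serping1, the inhibitor of the complement protease C1, was at 3.10 CPM in GL53 and had 0 counts in GL78 (3 counts would be 0.0710 CPM), against 42.1 and 22.5 CPM in cluster 0. Most cluster 3 cells had no read of these genes. Cavin2, a coat protein of caveolae, was at 42.2 and 13.1 CPM against 247.6 and 94.4 CPM (-2.64 ± 0.17), and Fcgrt, the neonatal Fc receptor that recycles IgG, at 26.1 and 6.60 CPM against 133.5 and 62.3 CPM (-2.68 ± 0.53). Adgrg6, an adhesion receptor coupled to G proteins, was at 2.11 and 3.36 CPM in cluster 3, against 57.7 and 21.4 CPM in cluster 0 (-3.30 ± 1.33). The remaining 3 of the 12 leading lower genes, Gcnt1, a glycosyltransferase, Synpo, an actin-binding protein, and Ctnnal1, a relative of alpha-catenin, had ratios of -2.79 ± 0.38, -2.77 ± 0.47 and -2.46 ± 0.15.

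Few genes were higher in cluster 3 and their ratios were smaller. Bok, a member of the BCL2 family that promotes cell death (chromosome 1, 93685660 to 93695764), was at 112.004 and 205.7 CPM in cluster 3, against 34.5 and 81.8 CPM in cluster 0 (1.496 ± 0.25), with reads in 60.5% and 82.4% against 29.2% and 58.3% of cells. Mcc, a regulator of proliferation named for its mutation in colorectal cancer, averaged 27.3 CPM in cluster 3 and 7.05 CPM in cluster 0 (1.95 ± 0.83). Ctu2, which thiolates transfer RNA, averaged 71.4 CPM in cluster 3 and 32.4 CPM in cluster 0, with nearly the same ratio in each batch (1.11 ± 0.03). Fndc3c1 (1.36 ± 0.08), Hspbap1 (1.29 ± 0.30) and Snx30 (1.17 ± 0.16) completed the higher genes that were read in at least 25% of cluster 3 cells. At 1.5-fold in each batch followed Kcne3, an accessory subunit of potassium channels, with 290.7 and 82.6 CPM in cluster 3, against 41.8 and 42.4 CPM in cluster 0, and a ratio that depended on the batch (1.86 ± 1.29). Ptp4a3, a phosphatase of endothelial and tumor cells, averaged 165.4 CPM in cluster 3 and 76.5 CPM in cluster 0 (1.14 ± 0.22). Lyar, a nucleolar protein, averaged 99.9 CPM in cluster 3 and 51.9 CPM in cluster 0 (0.94 ± 0.04), and Spred2, Dgkh and Zkscan8 had ratios of 1.17, 1.08 and 1.01.

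The promoters of 1 higher and 2 lower genes are shown as examples of genes that were called in both batches between clusters 3 and 0. Of these, Cldn11 was not below cluster 0 in E10.5 GFI1+ HE (0.43 against 0 CPM). Each runs 5′ to 3′ on the plus strand over 300 bases, from 250 before to 50 after the RefSeq gene start (GRCm38.p6), in the order Cldn11 (chr3:31149670-31149969), Edn1 (chr13:42301226-42301525) and Bok (chr1:93685325-93685624). Capitals mark a match of a GATA motif, which was found in Edn1 only of these promoters.
Cldn11: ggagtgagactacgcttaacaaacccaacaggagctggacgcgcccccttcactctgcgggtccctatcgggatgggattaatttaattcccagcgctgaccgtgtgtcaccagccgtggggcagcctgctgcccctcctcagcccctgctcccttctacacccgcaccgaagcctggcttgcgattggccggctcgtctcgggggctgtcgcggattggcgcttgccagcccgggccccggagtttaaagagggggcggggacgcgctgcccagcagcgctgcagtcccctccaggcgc
Edn1: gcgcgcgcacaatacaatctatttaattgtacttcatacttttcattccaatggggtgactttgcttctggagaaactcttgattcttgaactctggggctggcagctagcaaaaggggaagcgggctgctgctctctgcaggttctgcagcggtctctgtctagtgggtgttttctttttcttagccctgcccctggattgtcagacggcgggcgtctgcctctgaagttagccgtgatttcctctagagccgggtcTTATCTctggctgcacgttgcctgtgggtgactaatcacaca
Bok: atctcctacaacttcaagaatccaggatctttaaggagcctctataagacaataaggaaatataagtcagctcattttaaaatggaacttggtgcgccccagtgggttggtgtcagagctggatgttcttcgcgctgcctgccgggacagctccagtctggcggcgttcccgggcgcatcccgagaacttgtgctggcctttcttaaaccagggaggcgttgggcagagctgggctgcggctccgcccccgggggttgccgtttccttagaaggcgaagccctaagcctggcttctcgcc

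Motifs of endothelial and stress-related factors were searched on both strands, with the letters AGGAAG for ETS, AGATAA for GATA factors, TGANTCA for AP-1 and ACAATG for SOX. RefSeq promoters matched 22 of the 29 genes named here for cluster 3 over cluster 0, the label genes included. An ETS match was found in 2 of 10 lower and 5 of 10 higher genes of the 24 leading genes, against 35.4% of 32851 promoters of this length. A GATA match was found in 2 of 10 lower and 1 of 10 higher genes (11.2% of all promoters), an AP-1 match in 0 and 1 (7.81%), and a SOX match in 0 and 2 (12.6%). With 10 promoters a side the counts are a description only.

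Within cells of equal batch, stage and gate, all 12 leading lower genes were below cluster 0 in each of the 5 groups of E11.5 cells. These groups are parts of the sums on which the genes were chosen, and E11.5 cells made up most of cluster 0, so that their direction is largely set by the choice and is a description. The median log2 ratio of the 12 genes was -3.37, -3.23 and -3.54 in GFI1+ HE, GFI1+ IAHC and GFI1- IAHC of GL53, and -3.56 and -4.59 in GFI1+ HE and GFI1+ IAHC of GL78. At E10.5 the difference was smaller. In E10.5 GFI1+ IAHC (12 cells of cluster 3, 13 of cluster 0) 10 of the 12 genes were below cluster 0 with a median of -1.78, and in E10.5 GFI1+ HE (19 and 6 cells) 6 of 12 with a median of -0.48. Nrxn3, Edn1, Fcgrt, Adgrg6 and Ctnnal1 were below cluster 0 in all 7 groups, with Edn1 ratios between -6.70 and -0.50. The 12 leading higher genes were above cluster 0 in 9 to 12 of 12 cases per group, and Bok, Fndc3c1, Ctu2, Hspbap1, Ptp4a3 and Lyar in all 7 groups.

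**Figure D2:**
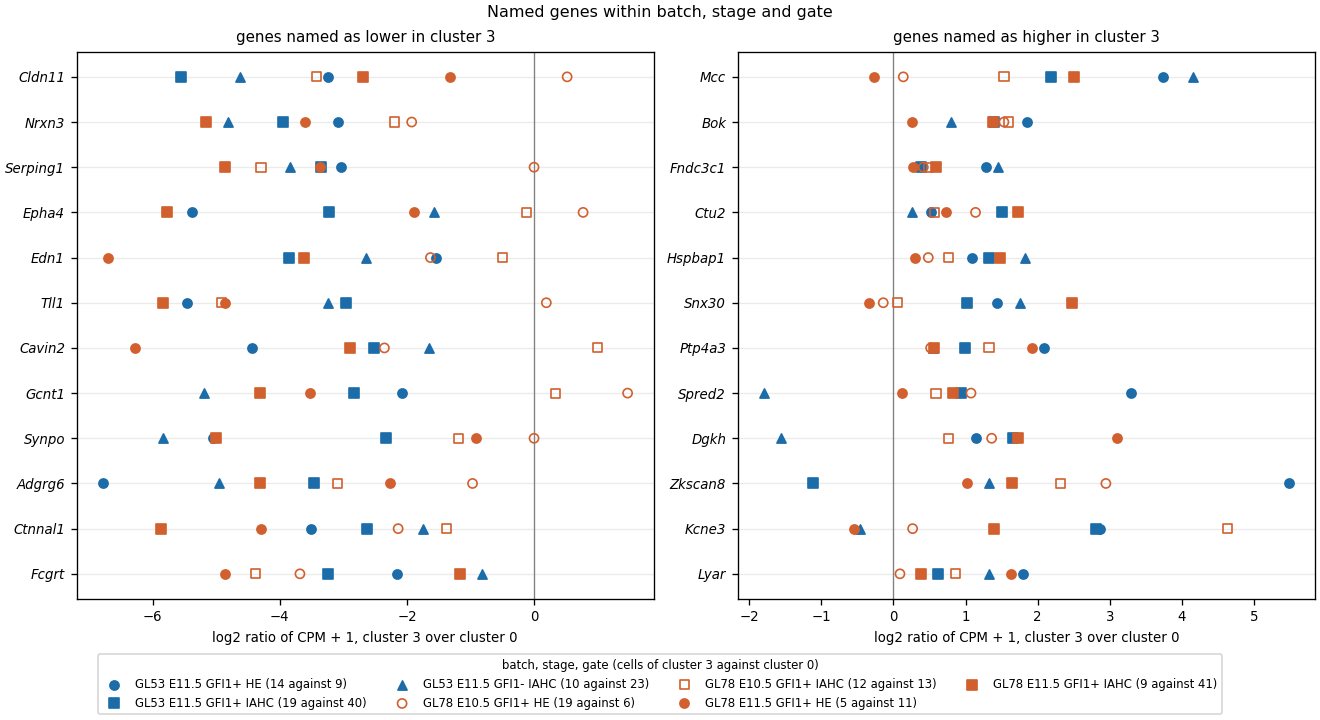
Log2 ratio of cluster 3 over cluster 0 for the 12 leading lower and 12 leading higher genes, with 1 point for each of 7 groups of equal batch, stage and gate. The lower genes lie below 0 in all E11.5 groups and scatter around smaller values in E10.5 GFI1+ HE (median -0.48, 19 against 6 cells).

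The spread of the 12 leading lower genes over single cells was then described. The genes were chosen from the sums of these same cells, so that a lower count in cluster 3 follows from the choice. Each cell was thinned to 50000 counts and the number of the 12 lower genes with a read was counted. The median cluster 3 cell had a read of 1 of them in GL53 and of 1 in GL78, against 6 and 3 in cluster 0. At least 3 of the genes were read in 20.9% and 3.92% of cluster 3 cells, against 86.1% and 59.5% of cluster 0 cells. Clusters 1, 2 and 5 also had medians of 1 in both batches, with at least 3 genes read in 16.9% and 4.17% of cluster 1 cells, 25% and 19.1% of cluster 2 cells, and 42.9% and 20% of cluster 5 cells. Cluster 4 was high, with 100% and 92.1%. Of the 12 higher genes, the median cluster 3 cell had reads of 5 in GL53 and 6 in GL78, against 3 and 4 in cluster 0, clusters 1 and 5 had medians of 5 to 6, and clusters 2 and 4 medians of 2 to 4.

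**Figure D3:**
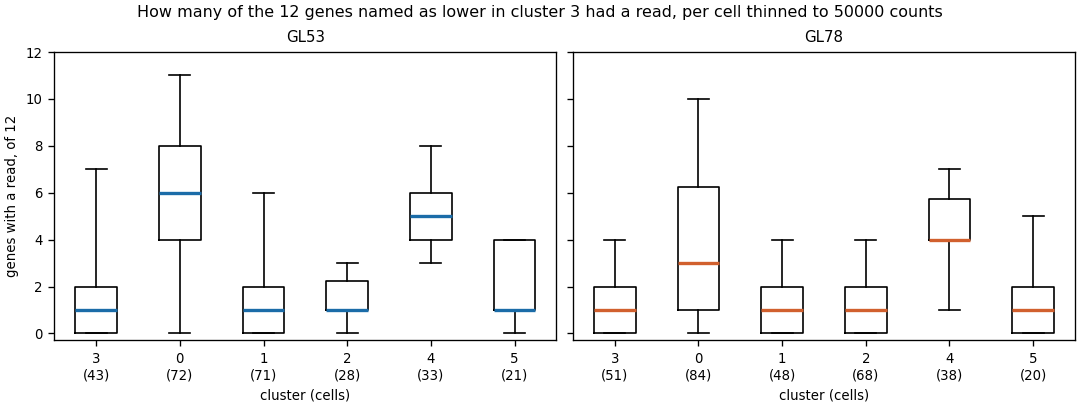
Number of the 12 leading lower genes that had a read in a cell thinned to 50000 counts, by cluster and batch (box, quartiles; line, median). Cluster 3 has a median of 1 in both batches, cluster 0 medians of 6 and 3.

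Gene groups were compared over the mean of both batches against the median of all genes, which was -0.09 for cluster 3 over cluster 0. Flow-responsive genes were among the lowest groups, with a median of -0.72 and 4 of 12 genes called lower (Klf2, Klf4, Edn1 and Vwf), 0 higher, where 3.14% of all genes compared were lower and 0.147% higher. Klf2 was at 109.2 and 87.4 CPM in cluster 3, against 245.96 and 222.4 CPM in cluster 0 (-1.25 ± 0.12), and Klf4 at 36.8 and 13.6 CPM against 111.7 and 98.6 CPM (-2.17 ± 0.84). Both factors are known to be induced by laminar shear stress. Over clusters 1 and 5 the flow-responsive medians were -0.01 and -0.25. Of the immediate early genes, 14 of 14 compared were below 0 in both batches (median -1.12), yet 0 met the 2-fold rule in both. Fos was at 488 and 345.5 CPM in cluster 3, against 821 and 1324 CPM in cluster 0, and Egr1 at 41.8 and 19.3 CPM against 74.5 and 110.4 CPM, so that the difference was larger in GL78.

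HSC-associated genes had a median of -0.70 over cluster 0, and 4 of 12 were called lower (3.14% of all genes). Over clusters 1 and 5 their medians were -0.22 and -0.15. Procr, the endothelial protein C receptor and a marker of HSC precursors, was at 38.5 and 26.3 CPM in cluster 3, against 226.8 and 102.3 CPM in cluster 0 (-2.22 ± 0.43). Mecom, a transcription factor needed by HSC, was at 39.1 and 17.7 CPM against 103.8 and 62.2 CPM (-1.57 ± 0.26), and was below cluster 0 in all 7 groups of equal batch, stage and gate. Cd34, a surface sialomucin of endothelium and HSC, went the other way without reaching 2-fold, at 1002 and 729 CPM against 568 and 443 CPM (0.77 ± 0.07). Lymphatic genes had a median of -1.94 with 2 of 5 called lower, among them Lyve1, a hyaluronan receptor, at 81.03 and 12.3 CPM against 251.2 and 115.4 CPM (-2.37 ± 1.07). Venous genes had a median of -0.69 with 0 of 7 called, Hox genes -0.71 with 1 of 9 called lower, and pan-endothelial genes -0.29 with 0 of 20 called. With 5 and 9 genes compared, the lymphatic and Hox counts are small beside the 3.14% of all genes.

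Notch genes had a median of -0.31, with 1 of 12 called lower. This was Dll1, a Notch ligand, at 26.5 and 16.1 CPM in cluster 3, against 157.9 and 79.6 CPM in cluster 0 (-2.38 ± 0.21). Dll4, the arterial ligand, was at 72.3 and 63.01 CPM against 22.8 and 50.9 CPM, and its ratio of 0.96 ± 0.93 was carried by GL53. Jag1, a further ligand, was at 25.1 and 8.90 CPM against 40.2 and 22.8 CPM (-0.96 ± 0.43), and Hey1, a target, at 16.5 and 18.7 CPM against 7.82 and 9.49 CPM (0.95 ± 0.05). Dll4, Jag1 and Hey1 did not meet the 2-fold rule, and arterial genes as a whole had a median of 0.26 with 0 of 13 called.

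In the basement membrane and matrix list 3 of 16 genes were called lower (3.14% of all genes) and 0 higher, with a median of 0.16 in GL53 and -0.26 in GL78. Fn1, fibronectin, was at 232.4 and 176.7 CPM in cluster 3, against 789 and 406 CPM in cluster 0 (-1.48 ± 0.40), and Fbn1, fibrillin 1, at 16.7 and 16.4 CPM against 120.1 and 60.6 CPM (-2.30 ± 0.68). The Wnt list had a median of -0.37 with 2 of 14 called lower and the BMP and TGF-beta list -0.48 with 0 of 15 called.

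Over cluster 0, metabolic genes of cluster 3 lay above the median of all genes. For glycolysis the median was 0.52, and 14 of 17 genes were above 0 in both batches, with 0 called. Over clusters 1 and 5 the glycolysis medians were 0.06 and -0.06, against -0.04 and 0.01 for all genes. Ldha, lactate dehydrogenase A, was at 1877 and 2751 CPM in cluster 3, against 1108 and 1660 CPM in cluster 0 (0.74 ± 0.02), and Pkm, pyruvate kinase, at 1442 and 2712 CPM against 844 and 1723 CPM (0.71 ± 0.08). Ribosomal proteins had a median of 0.15 with 21 of 22 above 0 in both batches, serine and one-carbon enzymes 0.35 with 0 of 10 called, and tubulins 0.40 with 1 of 10 called lower. The S phase list was near the median of all genes, at -0.08. The G2/M list had a median of 0.03 over both batches, with opposite signs in GL53 (-0.16) and GL78 (0.46). Apart from Tuba4a, a tubulin that was lower (-2.89), no member of these lists met the 2-fold rule.

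**Figure D4:**
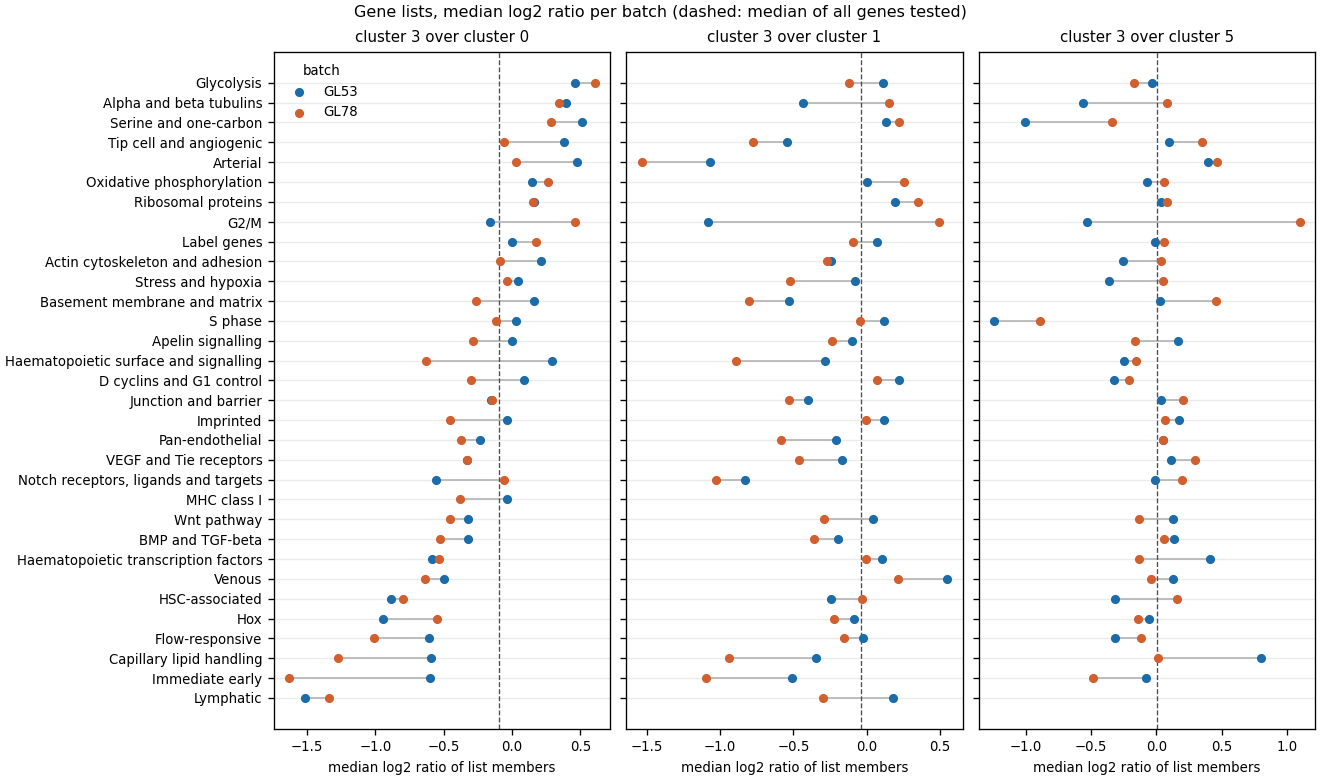
Medians of the gene lists (log2 ratio) in GL53 and GL78 for cluster 3 over clusters 0, 1 and 5; the dashed line is the median of all genes compared. Immediate early genes (-1.12 over both batches) and flow-responsive genes (-0.72) lie low and glycolysis (0.52) high against cluster 0.

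Cluster 1 also shared the label genes with cluster 3. Against it, 1.85% of 9337 genes were lower and 0.525% (49 genes) higher in cluster 3. Arterial genes had a median of -0.98 against -0.04 for all genes, with 6 of 13 called lower, 0 higher. Gja4, a connexin of arterial endothelium, was at 21.4 and 23.7 CPM in cluster 3, against 248.02 and 230.1 CPM in cluster 1 (-3.35 ± 0.18), and Hey1 at 16.5 and 18.7 CPM against 160.04 and 172.9 CPM (-3.17 ± 0.05). Unc5b, a netrin receptor of tip and arterial cells, had a ratio of -2.68 ± 0.49, Dll4 of -1.94 ± 0.29, and Gja1, a connexin, of -1.45 ± 0.12. Igfbp3, a binding protein of insulin-like growth factors, was at 401 and 210.5 CPM in cluster 3, against 1157 and 1231 CPM in cluster 1 (-2.04 ± 0.72). The Notch list had a median of -1.05 with 3 of 10 called lower, namely Dll4, Hey1 and Rfng, a glycosyltransferase that modifies Notch. Immediate early genes had a median of -0.85 with 1 of 14 called lower. Tip cell and angiogenic genes had a median of -0.69 with 3 of 18 called lower. Of the erythroid list 3 of 3 genes compared were lower. No gene of this list reached 10 CPM in cluster 3, so that these 3 entered through cluster 1 and could not come out higher. The erythroid marker sum of cluster 1 was also much larger in GL78 than in GL53, and the count is a description only. Venous genes had a median of 0.51, and 0 of 7 were called.

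Cluster 5 was closest in the number of genes. Of 9254 genes, 1.20% were lower and 0.929% (86 genes) higher in cluster 3 than in cluster 5. S phase genes had a median of -1.07, against 0.01 for all genes, and 23 of 23 compared were below 0 in both batches with 7 called lower. Rrm2, a subunit of ribonucleotide reductase, was at 82.5 and 211.6 CPM in cluster 3, against 475 and 562 CPM in cluster 5 (-1.96 ± 0.78). Cdc6 (-1.94) and Cdc45 (-2.10), which load and run the replicative helicase, and the E cyclins Ccne1 (-2.25) and Ccne2 (-2.07) were lower as well. Cdc20, an activator of the anaphase-promoting complex, was at 270.3 and 682 CPM in cluster 3, against 118.7 and 206.02 CPM in cluster 5 (1.45 ± 0.38), and was the only G2/M gene called higher. The G2/M median over cluster 5 was -0.53 in GL53 and 1.10 in GL78. Serine and one-carbon enzymes had a median of -0.72 with 0 of 10 called, and of the arterial list Gja4 and Unc5b were higher in cluster 3. Reads of Gja4 were found in only 9.30% and 9.80% of cluster 3 cells, so that its call rests on few cells.

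Clusters 2 and 4 were farther away. Against cluster 2, 13.4% of 10213 genes were lower and 7.72% higher in cluster 3. All 7 venous genes (median 4.73) and 14 of 20 pan-endothelial genes (median 1.96) were higher, and 14 of 19 hematopoietic transcription factors (median -4.58) and 18 of 20 hematopoietic surface and signaling genes (median -5.43) were lower. Runx1 had 0 CPM in GL53 and 0.947 CPM in GL78 in cluster 3, against 205.6 and 224.9 CPM in cluster 2, and Spi1, Myb, Ikzf1, Runx3, Gfi1 and Gfi1b had no read. Cluster 2 was thus the side with blood transcripts. Against cluster 4, 11.52% of 9932 genes were lower and 5.00% higher in cluster 3. Lower were 15 of 18 arterial genes (median -3.42, against -0.07 for all genes), 9 of 12 Notch genes (-2.18) and 9 of 13 HSC-associated genes (-2.50), and higher were 10 of 16 glycolysis genes (median 1.39). Gja5, an arterial connexin, was at 0.0364 and 17.6 CPM in cluster 3, against 1479 and 1622 CPM in cluster 4, and Jag1 at 25.1 and 8.90 CPM against 750.2 and 275.4 CPM. Nr2f2, the venous regulator COUP-TFII, was at 110.9 and 56.2 CPM against 3.73 and 1.70 CPM.

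When the 5 other clusters were weighted equally, 6.03% of 9790 genes were lower and 0.102% (10 genes) higher in cluster 3. Gap43, a growth-cone protein, was at 190.996 and 271.5 CPM in cluster 3, against 82.1 and 121.3 CPM in the mean of the others (1.18 ± 0.04). Clec1b, which encodes the receptor CLEC-2, was at 149.1 and 153.3 CPM against 53.1 and 65.1 CPM (1.35 ± 0.18), and Rsad2, the interferon-induced protein viperin, at 92.4 and 46.8 CPM against 36.8 and 15.04 CPM (1.44 ± 0.19). Nhs, an actin regulator, was at 16.2 and 11.1 CPM against 4.97 and 3.03 CPM (1.56 ± 0.05), and Osbpl10, Simc1 and Pcsk6 had ratios of 1.29, 1.14 and 1.09. These genes were not particular to cluster 3, since Clec1b was at 50.5 and 153.97 CPM in cluster 5. Stard8 (1.09), Rnf165 (0.95), Hspbap1 (1.05), Ebf3 (0.93) and Gstk1 (0.87) were at least 1.5-fold higher in both batches.

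Of the gene lists, many had a larger share of lower genes in this comparison than the 6.03% of all genes. Among them were 15 of 19 hematopoietic surface and signaling genes (median -4.03, against -0.11 for all genes), 10 of 17 hematopoietic transcription factors (-2.89), 9 of 17 arterial (-1.97), 9 of 16 HSC-associated (-2.00), 6 of 13 Notch (-1.34) and 7 of 20 basement membrane genes (-0.40). Of 20 pan-endothelial and 7 venous genes 0 were called. The mean of the others includes cluster 2 with its blood transcripts and cluster 4 with its arterial transcripts. Against clusters 0, 1 and 5 singly, 1 of 9, 1 of 7 and 0 of 7 hematopoietic surface and signaling genes were called lower. For arterial genes these counts were 0 of 13, 6 of 13 and 0 of 13, where 3.14%, 1.85% and 1.20% of all genes were lower. Stxbp2, a syntaxin-binding protein of granule release, was at 2.26 and 1.09 CPM in cluster 3, against 91.4 and 75.3 CPM in the mean of the others (-5.01 ± 0.26). Coro1a, a leukocyte actin regulator, Srgn, a granule proteoglycan, Ptpre, a phosphatase, and Ikzf2, a transcription factor, had ratios of -4.42, -4.63, -4.84 and -4.77. Gja4 (-4.67) stood beside them, followed by Ltbp4, Adgrg1 and Plcg2 (-4.54, -4.07 and -4.20). Runx1 was at 0 and 0.947 CPM in cluster 3, against 44.2 and 53.8 CPM in the mean of the others, Gja5 at 0.0364 (1 count) and 17.6 CPM against 300.3 and 338.995 CPM, and Pde3a, a phosphodiesterase, at 0 and 1.94 CPM against 109.2 and 39.3 CPM.

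Against each of the 5 clusters in turn, 1 of 8812 genes was at least 2-fold higher in cluster 3 over the mean of the batches and 18 of 7617 were at least 2-fold lower. The higher gene was Dcbld2, a membrane receptor known to modulate growth factor signaling, at 10.98 CPM in cluster 3, against 4.84, 3.44, 3.43, 1.45 and 2.32 CPM in clusters 0, 1, 2, 4 and 5, and it was not 2-fold higher in every batch. Among the lower genes Stxbp2, Mgat5, a Golgi glycosyltransferase, and Sfi1, a centrosomal protein, were 2-fold lower in every batch. Stxbp2 averaged 1.67 CPM in cluster 3, against 15.5, 10.54, 272.6, 98.95 and 19.1 CPM in clusters 0, 1, 2, 4 and 5. Cluster 3 thus differed from all 5 clusters more by lower than by higher genes.

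Xist, the RNA of the inactive X chromosome, was among the 18 genes, at 68.7 CPM in cluster 3, against 163.9, 146.6, 237.8, 226.4 and 112.9 CPM in clusters 0, 1, 2, 4 and 5. Its level depends on the sex of the embryos. In GL78, 12 cluster 3 cells had reads of Xist only and 31 of Y-linked genes only, against 42 and 37 cells of cluster 0, and at E10.5 these numbers were 3 and 26 against 1 and 19. A further 13.95% and 15.7% of cluster 3 cells (6 of 43 and 8 of 51) had neither, against 4.17% and 1.19% of cluster 0 cells. Xist was below cluster 0 in 5 and above it in 2 of the 7 groups of equal batch, stage and gate, and the part of the sex of the cells in the other differences was not tested.

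By gate and stage, 39 cluster 3 cells (38.6%) were GFI1+ HE, 46 (45.5%) GFI1+ IAHC and 16 (15.8%) GFI1- IAHC, against 17.9%, 61.3% and 20.8% of cluster 0. E11.5 gave 65 cells (64.4%) and E10.5 gave 36 cells (35.6%) of cluster 3. Cluster 3 took 13.9% of all kept GFI1+ HE cells, 12.9% of GFI1+ IAHC and 11.6% of GFI1- IAHC, so that no gate was much richer in it, whereas cluster 0 took 11.03%, 29.8% and 26.1%. In GL78, 64.7% of cluster 3 cells (33 of 51, exact binomial 95% interval 50.1% to 77.6%) were from E10.5, against 23.8% of cluster 0 cells (20 of 84, 15.2% to 34.3%). In E10.5 GFI1+ HE of GL78, 20.9% of kept cells (13.1% to 30.7%) were in cluster 3, against 6.59% (2.46% to 13.8%) in cluster 0, and in E11.5 GFI1+ IAHC the order was the other way, 10.1% (4.73% to 18.3%) against 46.1% (35.4% to 56.96%). These shares follow from the sort and describe membership, not abundance in the embryo.

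The authors' cell cycle calls placed 45.5% of cluster 3 cells in G1, 3.96% in S and 50.5% in G2M, against 51.4%, 2.89% and 45.7% of cluster 0 cells. In GL53, which held E11.5 cells only, 25.6% of cluster 3 cells were called G2M, against 23.6% of cluster 0 cells, and in GL78 68.6% against 54.8%. In E10.5 GFI1+ HE, 84.2% of cluster 3 cells were called G2M, against 87.5% of cluster 0 cells, and in E11.5 GFI1+ IAHC 77.4% were called G1, against 58.6%. The G1 share was 60% against 39.1% in E11.5 GFI1+ HE. In E11.5 GFI1- IAHC the order was the other way, at 50% against 74.3%. Cell cycle scores had been regressed out before clustering.

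Within cluster 3, GFI1+ HE and GFI1+ IAHC cells could be compared in 3 pairs of equal batch and stage (14 and 19, 19 and 12, and 5 and 9 cells). Of 9203 genes, 64 (0.695%) were lower and 27 (0.293%) higher in GFI1+ HE in all pairs. Apln, the ligand of the apelin receptor, averaged 114.3 CPM in GFI1+ HE and 35.4 CPM in GFI1+ IAHC of cluster 3 (1.55 ± 0.46, SD over 3 pairs), with a ratio of 0.80 in cluster 0. Nthl1, a glycosylase of base excision repair, averaged 38.7 CPM in GFI1+ HE and 11.03 CPM in GFI1+ IAHC (1.73 ± 0.24), and Pfkm, a phosphofructokinase of glycolysis, 34.9 and 14.6 CPM (1.21 ± 0.04). Fn1 averaged 96.7 CPM in GFI1+ HE and 296.9 CPM in GFI1+ IAHC of cluster 3 (-1.69 ± 0.41), with a ratio of -0.02 in cluster 0. Lamb2, a laminin chain, averaged 10.7 and 36.5 CPM (-2.12 ± 1.39) and Slc30a1, a zinc exporter, 2.59 and 19.2 CPM (-2.38 ± 0.42). The difference between the clusters in these contrasts was not tested.

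GFI1+ IAHC over GFI1- IAHC rested on 1 pair in GL53 (19 and 10 cells), in which 14.1% of 9741 genes were lower and 14.8% higher without any check by a second batch, so that no gene is named. E11.5 over E10.5 rested on GL78 with 5 and 19 GFI1+ HE cells and 9 and 12 GFI1+ IAHC cells. There 5.69% of 9117 genes were lower and 3.98% higher at E11.5 in both gates. Ednrb, an endothelin receptor, averaged 359.4 CPM at E11.5 and 21.2 CPM at E10.5 in cluster 3 (4.00 ± 1.31, SD over 2 gates), with a ratio of 2.77 in cluster 0. Ly6e, a glycolipid-anchored protein of the LY6 family, averaged 33.0 and 2.81 CPM (3.23 ± 0.20), with a ratio of 2.93 in cluster 0, and Rfng 29.7 and 1.62 CPM (3.54 ± 0.28), with a ratio of 1.25. Gata3, a transcription factor of lymphoid and sympathetic cells that acts in AGM hematopoiesis, had no read at E11.5 and averaged 31.01 CPM at E10.5, and Gtse1, a G2/M gene, had none at E11.5 and 55.7 CPM at E10.5. The pseudogene Rps2-ps13, whose reads may come from copies of the same sequence, was at 3.32 and 513 CPM (-6.90 ± 0.17), with a ratio of -7.29 in cluster 0.

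Protein signals of the sorter were not used for clustering. They were available for all but 4 cells of cluster 3 and 11 cells of cluster 0, in arbitrary intensity units that can fall below 0. DLL4 had a median of 8.35 in GL53 and 14.2 in GL78 in cluster 3, against -33.1 and -21.4 in cluster 0. The DLL4 median was higher in cluster 3 in 6 of the 7 groups of equal batch, stage and gate, with differences between -5.14 and 61.3. CKIT had a median of 299.4 and 339.2 in cluster 3, against 416 and 433 in cluster 0, and was lower in 5 of 7 groups (differences between -138 and 186.2), a signal that the gates themselves divide. CD41, an early hematopoietic surface protein, was at 521 and 454 against 632 and 659. It was lower in the 4 IAHC groups but higher in the 3 GFI1+ HE groups, and the gate mix of the clusters differed. CD45, the leukocyte antigen, was lower in 5 of 7 groups. The GFI1 signal, which the gates also divide, was higher in 5 of 7 groups (differences between -71.3 and 259.1). The mean difference over batches was 0.153 for NOTCH2, 62.7 for NOTCH1 and -39.2 for JAG1, without one direction across the groups. Single cells overlapped widely, since the DLL4 quartiles in GL53 were -49.1 and 36.5 in cluster 3, against -75.8 and 9.73 in cluster 0, and with no embryo named these differences carry no test.

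**Figure D5:**
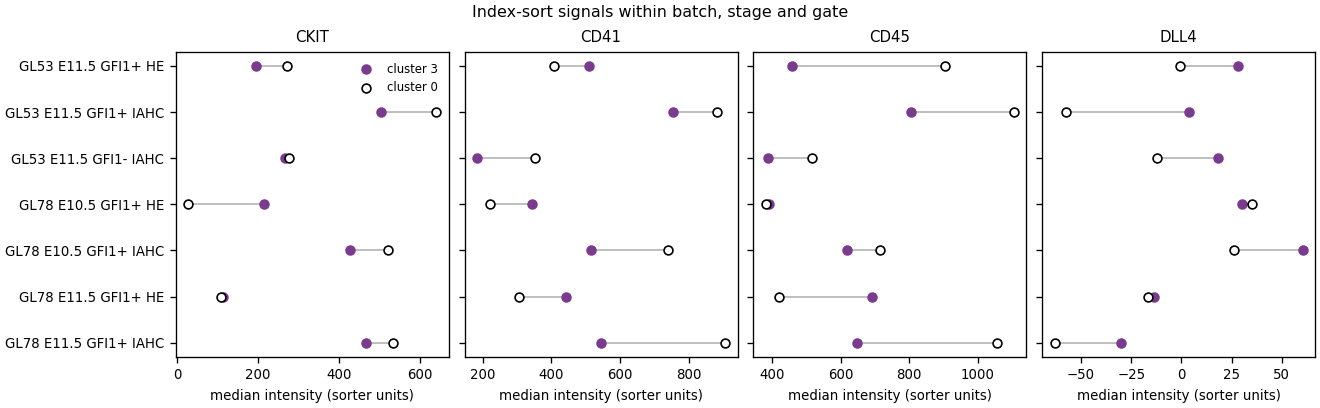
Median sorter intensity (arbitrary units) of CKIT, CD41, CD45 and DLL4 in cluster 3 (filled) and cluster 0 (open) within 7 groups of equal batch, stage and gate. DLL4 is higher in cluster 3 in 6 groups, and CKIT and CD45 are lower in 5. CD41 is lower in the 4 IAHC groups and higher in the 3 GFI1+ HE groups.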

How the data were processed

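Single AGM cells of Gfi1:tomato embryos were sequenced by Smart-Seq2 and carry 4 batch names. Cluster 3 held 101 cells and cluster 0 held 173. The authors aligned reads to mm10 with STAR 2.7.3 and deposited raw counts per gene from HTSeq 0.9.1, per the submitters' processing notes. Which annotation release and strand setting were used, and whether duplicate reads were removed, is not given in the sources used here. There were 46078 gene IDs, of which 45143 were given a symbol of GENCODE M21 (GRCm38), and IDs without one took 0.0682% of the counts. The authors also deposited the fluorescence intensity of 9 sorter signals, the mitochondrial fraction of counts (0 to 1), cell cycle phases and Louvain clusters, which were drawn with Scanpy 1.4.4 after regression on depth, mitochondrial share and cell cycle and without batch correction. The table of normalized natural log values that the authors deposited was not used here. No doublet caller was run, and the 775 cells kept by the authors were used.

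Counts were summed per cluster and batch and scaled to CPM. Log2 ratios (1 CPM added) were taken within GL53 and GL78, which held at least 5 cells of each cluster, and averaged with the SD over 2 batches, and ratios of low genes, and medians of lists with members at 0, depend on the CPM added. Genes were compared at 10 CPM or more in the higher group. The 5 label genes were named whatever their values. Further named genes were the 12 per direction with the largest smallest batch ratio among genes read in at least 25% of the cells of the higher group, at least 2-fold in both batches or, where fewer than 12 were, at least 1.5-fold. For the comparison with each of the 5 clusters it was the 10 with the largest smallest ratio, and of gene lists the highest and lowest members, with further members named after their values were seen. The members and the 39 gene lists (522 symbols, 1 not found, a median given from 5 members) were chosen with earlier results of these data known. Intervals are exact at 95% and cover counting error only, since reads carry no molecular identifiers. The ratio step was tested on simulated data. Python 3.11.15, numpy 2.4.6, pandas 2.3.3, scipy 1.17.1 and matplotlib 3.10.9 were used, with TMM factors from edgeR 4.0.16 in R 4.3.3 as an alternative.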

Additional observations from a re-analysis of the deposited data

Results flagged for a closer look

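For some genes named above, the direction differed between stages or between clusters, and these differences were not tested. Over cluster 0, Gcnt1 had a log2 ratio of -3.59 in the E11.5 cells of cluster 3 and of 0.90 in its E10.5 cells, and Tmem88 of -0.23 and 0.13. For E11.5 over E10.5, the ratio in cluster 3 and in cluster 0 was -3.08 and 1.02 for Edn1, -2.15 and 2.67 for Gcnt1, -0.49 and 0.26 for Bok, and 0.23 and -0.23 for Tuba1a. The E10.5 cells behind these values came from GL78, where the stages lay on separate plates.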

How the results depend on the processing

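The share of compared genes that was called depended on the settings. Over cluster 0 it was 0.147% higher and 3.14% lower as reported; higher genes made up 0.273% with TMM scaling, 0.0526% and 0.232% with 5 and 0.1 CPM added, 0.362% from 1 CPM on, 0.284% within batch, stage and gate, 1.13% in G1 cells, 0.302% at 50000 counts and 1.31% at 1.5-fold, and lower genes 1.86% with 5 CPM added, 5.06% from 1 CPM on, 5.11% in G1 cells and 8.34% at 1.5-fold. With a single batch, 0.776% to 2.97% were higher and 8.49% to 8.76% lower. Over the 5 clusters together, 0.102% higher and 6.03% lower as reported became 0.0409% higher with 5 CPM added, 0.141% higher and 8.66% lower from 1 CPM on, 0.0310% higher within batch, stage and gate, 0.404% higher in G1 cells, 0.705% higher and 11.49% lower at 1.5-fold, and with a single batch 0.370% to 1.73% higher and 9.79% to 11.24% lower. Alternatives chosen after seeing the data gave 0.460% higher genes over cluster 0 in E11.5 cells only and 0.273% without E10.5 GFI1+ HE cells, and 0.291% over the 5 clusters in E11.5 cells only. More genes pass in 1 batch because a single ratio has to reach the fold, and otherwise the cause was not tested.

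The 24 leading genes kept their direction under each of the alternatives run, with 76 values that moved beyond the SD over batches. These genes were chosen for the same direction in both batches, so that leaving out a batch could not reverse them. The other settings reuse the same cells, and the kept direction is a description only. In single groups of equal batch, stage and gate some did reverse, such as Gcnt1 at 1.47 in E10.5 GFI1+ HE. Of the list medians, those of actin, basement membrane, D cyclin, G2/M, S phase and stress genes changed sign under 5 or more settings. Immediate early genes ranged from -1.63 to -0.60 and glycolysis from 0.30 to 0.62. Averaged over groups of equal stage and gate, the difference of cluster 3 minus cluster 0 was 28.1 for DLL4, -33.04 for CKIT, 84.2 for GFI1, -73.3 for CD41 and -174.1 for CD45. No paired analysis was possible because replicate numbers only name single cells and no test was made; ratios were instead taken within batch or within batch, stage and gate. Cells came from pooled embryos, and how many of them contributed to cluster 3 is not given in the sources used here.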
